A study of Mus musculus with 2 samples.

Results

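The 32 genes described here encode integrin subunits, their ligands on other cells and further adhesion molecules of leukocytes. They were chosen by gene symbol, and all 32 were among the 32285 genes of the deposited count matrices. The members are 11 integrin alpha subunits (Itga1, Itga2, Itga2b, Itga4, Itga5, Itga6, Itgav, Itgae, Itgal, Itgam, Itgax), 6 beta subunits (Itgb1, Itgb2, Itgb3, Itgb5, Itgb7, Itgb8) and 15 other adhesion genes (Icam1, Icam2, Vcam1, Selplg, Cd44, Cd47, Sirpa, Jaml, F11r, Cdh1, Pecam1, Fermt3, Tln1, Cadm1, Spn). Their unique molecular identifiers (UMIs) were summed over the cells of each leukocyte class in each library and divided by all UMIs of that class (CPM). Where a pair of values is given with no library named, the PBS value comes first and the UDSP-Hep value second.

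Mice carried subcutaneous B16F10-OVA tumours, grown from a melanoma line given the model antigen ovalbumin. One group was injected with PBS and the other with UDSP-Hep, an agent that the labels name without describing, on days 10, 12, 14 and 16. On day 19, CD45+ leukocytes were sorted from 3 tumours of each group, and about 10000 cells of each group were loaded for 10x Genomics single-cell RNA sequencing. Each group is 1 library with no map from cells to tumours, so there is no replicate, no test and no p-value. Strain, sex and age of the mice are not used here.

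Integrins are paired alpha and beta chains that sit in the membrane and bind matrix proteins or other cells. Most are inactive until signals inside the cell drive talin and kindlin onto the beta chain's tail. On leukocytes the beta-2 family (Itgb2 with Itgal, Itgam or Itgax) binds ICAMs and complement fragments, Itga4 binds VCAM-1 with Itgb1 and the gut addressin with Itgb7, and Itgae with Itgb7 binds E-cadherin. Selectin ligands start the rolling of leukocytes along vessels, and integrins then arrest them.

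The PBS library held 7379 barcodes with 74685827 UMIs and the UDSP-Hep library 7872 barcodes with 64241224 UMIs, and 25 barcode sequences occurred in both. After filtering, 6717 and 7194 cells remained with median depths of 7874 and 5483 UMIs, and Ptprc, which encodes CD45, was detected in 92.3% and 94.6% of them. Marker genes, none of them a member, placed 4699 and 5208 cells in 16 classes whose names stand for cells like that type and are rebuilt here, not the authors'. A further 338 and 268 cells lay near the limit between classes. Levels are given for 15 classes (eosinophils had 1 cell in the PBS library), and the libraries are compared in the 9 classes with at least 50 cells in each. Summed melanoma markers reached at most 20.1 CPM in any class and erythroid markers 0.899 CPM. All intervals are 95% and cover counting error only, since cells of 1 library are not replicates.

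The leukocyte classes differed in which integrin and adhesion genes they had most of, as the heat map of levels by class shows. The class with the highest level was the same in both libraries for 25 of the 32 members. For 5 of them (Itga2b, Itgav, Itgb8, Vcam1 and Cdh1) that class stood at least 2-fold above the next one in both libraries. With every cell thinned to 1000 UMIs, the top class was shared for 16 members. CPM does not correct for gene length, so levels are compared between classes for 1 gene at a time and never between genes.

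**Figure D1:**
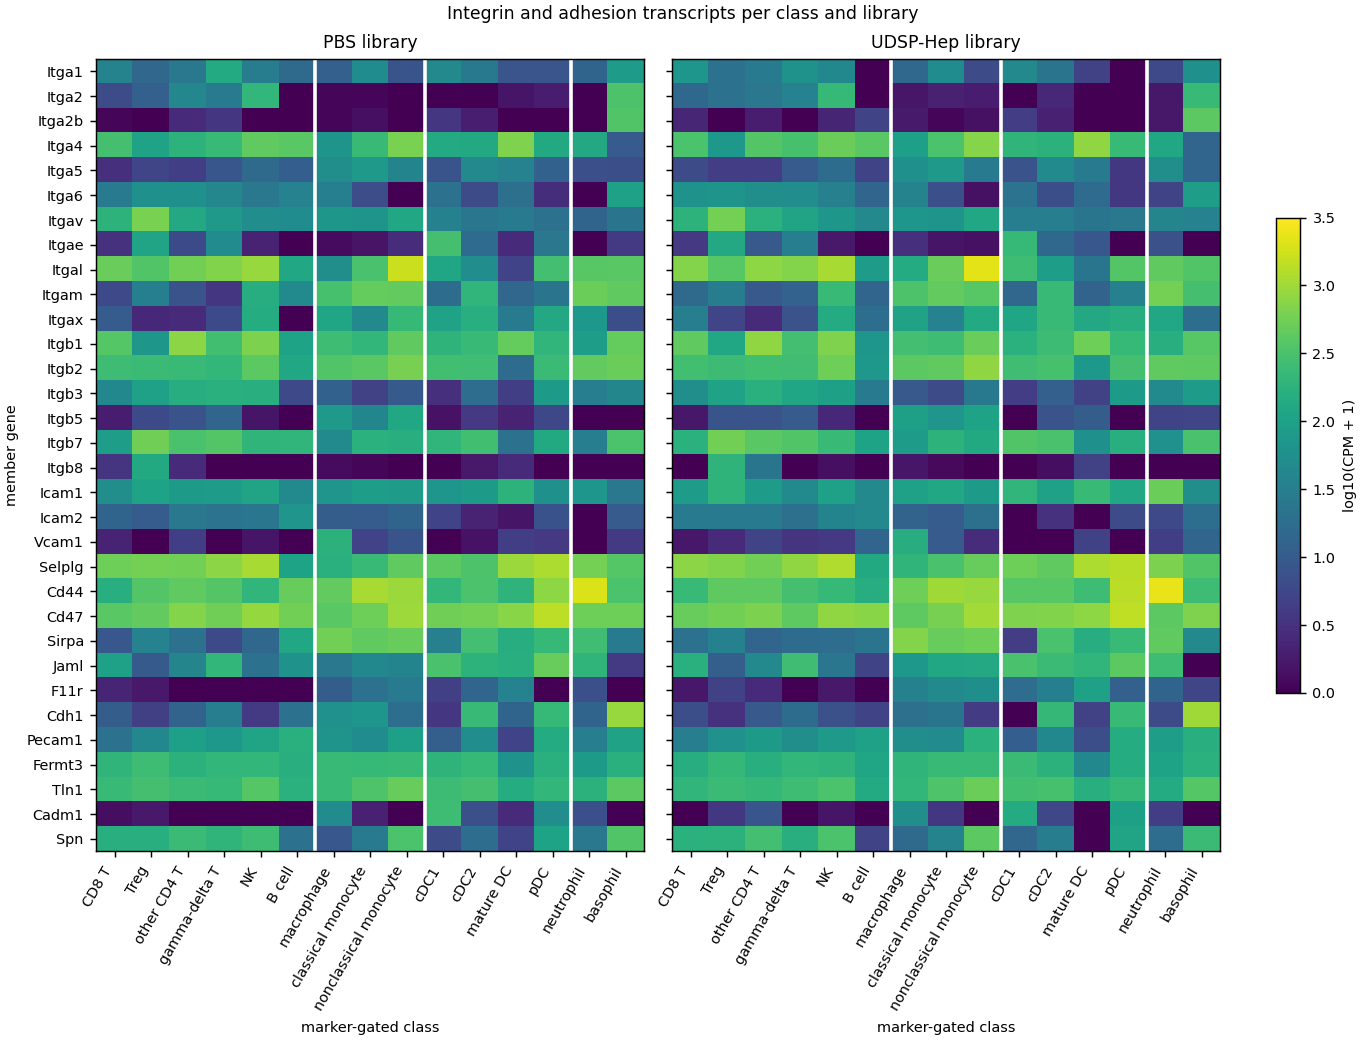
Level of the 32 members (rows) in 15 marker-gated classes (columns) of the PBS library (left) and the UDSP-Hep library (right), as log10(CPM + 1), with white lines between lymphocytes, phagocytes, dendritic cells and granulocytes. Itgal is brightest in nonclassical monocytes, Itgb8 and Itgav in Tregs, Vcam1 in macrophages and Itga2b in basophils, in both libraries.

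Among the beta-2 integrin genes, Itgal (the alpha chain of LFA-1, a receptor for ICAMs) was highest in nonclassical monocytes, the vessel-patrolling monocytes, at 1639 CPM (1535 to 1747) with PBS and 2269 CPM (2206 to 2332) with UDSP-Hep. Natural killer (NK) cells came next with 913 and 1111 CPM. Nonclassical monocytes were thus 1.79-fold (1.65 to 1.95) and 2.04-fold (1.97 to 2.12) above NK cells. Mature dendritic cells (DCs), which have left the tissue-sampling state and express Ccr7, were lowest with 3.98 and 21.8 CPM. Their Itgb2, the shared beta chain, was lowest too, at 16.5 and 71.4 CPM, against 601 and 833 CPM in nonclassical monocytes. No other class had less than 72.8 CPM of Itgb2 in either library.

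Itgam, the alpha chain of the complement receptor Mac-1, was highest in neutrophils with 509 CPM in the PBS library, from 46 cells, and 586 CPM in the UDSP-Hep library, from 553 cells. Classical monocytes followed with 473 and 456 CPM, and in the PBS library the ratio of the first to the second, 1.07 (0.855 to 1.33), was within counting error. T cells of all 4 classes were at or below 31.2 CPM, whereas NK cells had 152 and 232 CPM. Itgax, the CD11c chain and a usual dendritic cell marker, was also found outside dendritic cells. It was highest in nonclassical monocytes in the PBS library at 219.8 CPM and in cDC2, the conventional dendritic cells that present antigen mainly to CD4 T cells, in the UDSP-Hep library at 226 CPM. NK cells, at 147 and 141 CPM, exceeded cDC1, the cross-presenting dendritic cells, at 102 and 112 CPM.

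The genes of these 3 alpha chains lie on chromosome 7 of GRCm38, the assembly that mm10 names, together with Spn. Itgal spans 127296260 to 127335138, Itgam 128062640 to 128118491 and Itgax 128129547 to 128150657, all on the plus strand. Itgam and Itgax are 11056 bases apart. Their RefSeq promoters (GRCm38.p6, 250 bases before to 50 after the start, chr7:128062390-128062689 and chr7:128129300-128129599, both plus strand) are printed to show how these neighbours differ in GAGGAA, a sequence bound by PU.1, a transcription factor of myeloid cells. Capitals mark GAGGAA or its reverse complement.
Itgam: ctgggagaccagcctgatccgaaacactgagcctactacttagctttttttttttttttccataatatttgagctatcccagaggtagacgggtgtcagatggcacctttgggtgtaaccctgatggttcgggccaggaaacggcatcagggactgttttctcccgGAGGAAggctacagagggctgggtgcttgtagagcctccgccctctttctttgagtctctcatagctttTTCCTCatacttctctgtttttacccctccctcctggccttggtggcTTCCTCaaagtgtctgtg
Itgax: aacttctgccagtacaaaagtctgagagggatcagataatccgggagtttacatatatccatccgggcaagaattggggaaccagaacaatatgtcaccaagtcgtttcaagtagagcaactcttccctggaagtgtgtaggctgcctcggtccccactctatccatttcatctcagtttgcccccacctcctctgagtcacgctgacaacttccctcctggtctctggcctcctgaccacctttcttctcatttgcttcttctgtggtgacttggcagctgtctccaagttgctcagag
The Itgam window held 3 matches and the Itgax window 0. RefSeq promoters were found for 20 members in 21 windows. GAGGAA on either strand was in 9 of these windows (42.9%) and in 28.3% of all 32851 promoters of that length. TGTGGT, bound by RUNX factors, was in 4 windows (19%, against 16.8%), including those of Itgax and Jaml. TTCNNNGAA, bound by STAT factors, was in 1 window (Icam1; 8.3% of all promoters) and an NF-kappaB motif (GGG and TTTCC with 2 bases of any kind between) in 0 (1.63% of all). No member window held more than 1 of these motifs, so none overlapped, and a match is a description of letters only.

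Itga4 was highest in mature DCs, at 671 CPM with PBS and 819 CPM with UDSP-Hep, and next in nonclassical monocytes at 629 and 736 CPM. The top ratio, 1.07 (0.946 to 1.20) and 1.11 (0.996 to 1.24), did not separate those classes beyond counting error. Basophils had the least, with 8.98 and 12.98 CPM. Mature DCs thus combined the highest Itga4 with the lowest Itgal and Itgb2. Of its beta partners, Itgb1 was high in the same cells (476 and 533 CPM) and Itgb7 was at its lowest there (19.9 and 55.5 CPM). Itgb1, the beta chain of most matrix receptors, peaked in other CD4 T cells, meaning CD4 T cells outside the Treg gate, at 776 and 819 CPM.

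Treg cells, the Foxp3-expressing suppressor T cells, were the highest class for Itgb8, Itgav and Itgb7. Itgb8, whose product pairs with alpha-v and activates latent TGF-beta, was at 134 CPM (115 to 154) with PBS and 189 CPM (169 to 209) with UDSP-Hep. The next class reached 2.34 CPM (CD8 T cells) with PBS and 22.0 CPM (other CD4 T cells, with summed Treg markers of 972 and 994 CPM) with UDSP-Hep. Itgav, the alpha-v chain, was at 615 CPM and 579 CPM in Treg cells, which was 3.36-fold (3.07 to 3.68) and 3.17-fold (2.85 to 3.53) above CD8 T cells. Itgb7 was also highest in Treg cells, with 546 and 562 CPM, while Itgb1 was low there, at 71.2 CPM and 120.4 CPM. Treg cells came after cDC1 for Itgae, whose product holds lymphocytes against epithelium.

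Itgae was highest in cDC1 with 292 CPM (269 to 317) in the PBS library, from 78 cells, and 219.8 CPM (170 to 280) in the UDSP-Hep library, from 16 cells. Treg cells had 109.7 and 129 CPM and gamma-delta T cells 48.5 and 30.1 CPM, and CD8 T cells, a subset of which bears the protein in other tumours, had 2.17 and 2.82 CPM. Cadm1, an immunoglobulin-like adhesion molecule that binds Crtam on lymphocytes, was highest in cDC1 too, at 257 and 142 CPM. With UDSP-Hep this was within counting error of plasmacytoid DCs (1.45, 0.909 to 2.33). Plasmacytoid DCs (51.4 and 97.8 CPM) and macrophages (48.4 and 52.6 CPM) were the only other classes above 10 CPM for Cadm1.

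**Figure D2:**
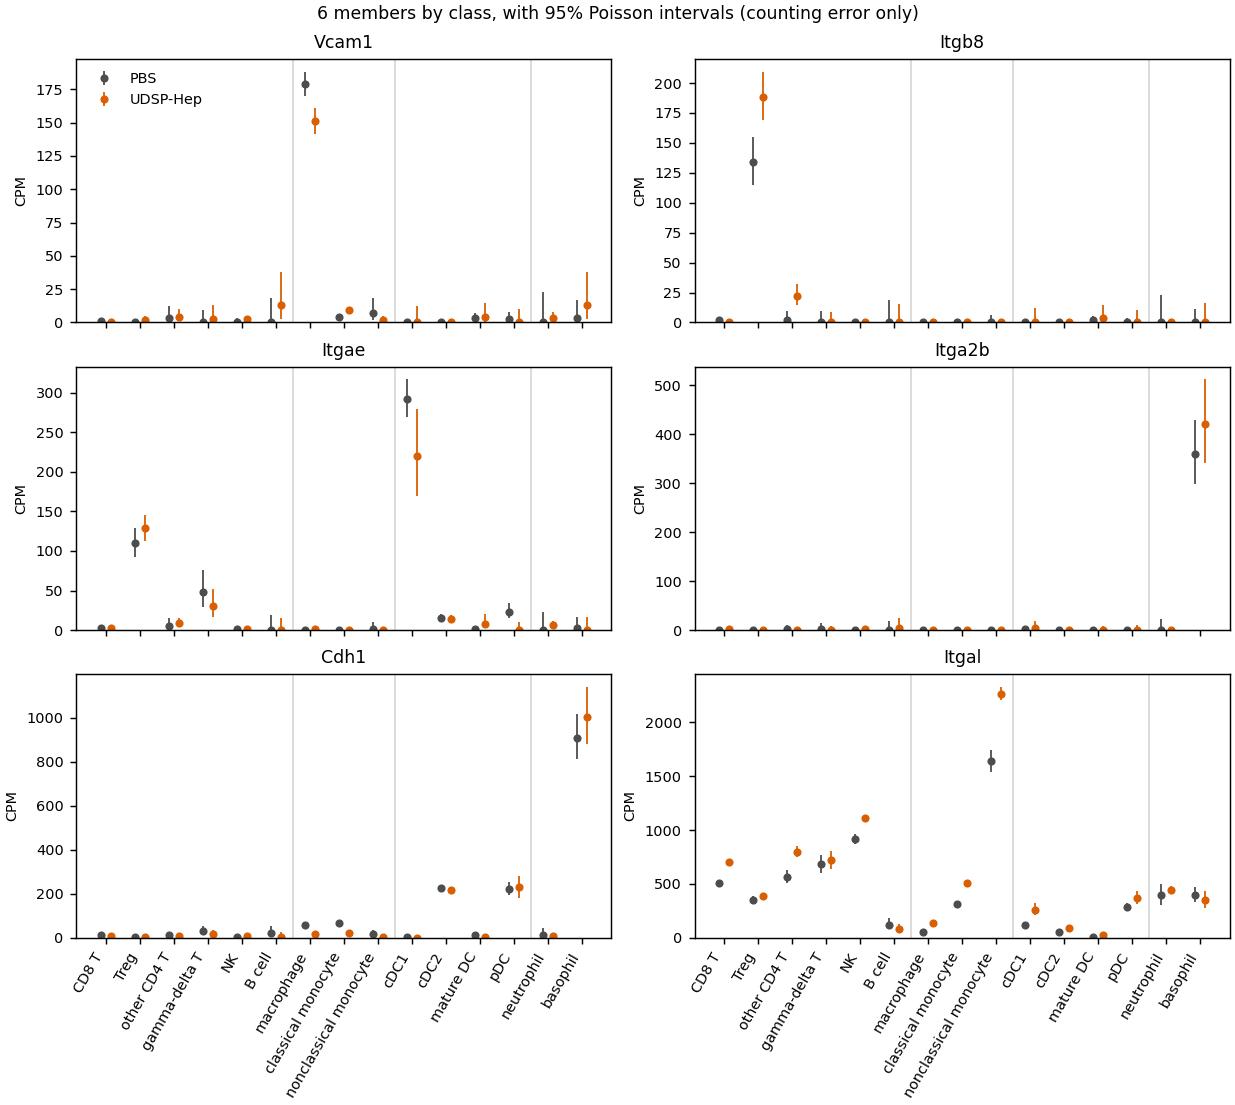
CPM of 6 members in 15 classes of the PBS (grey) and UDSP-Hep (orange) libraries, with bars for 95% Poisson intervals (counting error only) and vertical lines between the 4 cell groups. Vcam1, Itgb8 and Itga2b each stand above 100 CPM in 1 class, Itgae in cDC1 and Treg cells, Cdh1 in basophils, cDC2 and plasmacytoid DCs, and Itgal in most classes.

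Basophils, of which there were 66 and 41 cells, carried a further set. Itga2b, the platelet integrin alpha-IIb that is also found on early blood progenitors, was at 359 CPM (298 to 429) and 419.6 CPM (340.3 to 512). No other of the 15 classes exceeded 4.28 CPM, and 4 platelet markers summed to 5.98 and 8.65 CPM in the same basophils. Cdh1, which encodes E-cadherin, was also highest in basophils at 909.6 and 1004 CPM, 4.01-fold (3.52 to 4.57) and 4.40-fold (3.41 to 5.72) above the next class. Itga2, the collagen receptor chain known as CD49b, was at 332 and 225 CPM in basophils and at 207 and 222 CPM in NK cells, both of which are usually stained for it. In the UDSP-Hep library those classes were within counting error of each other (1.01, 0.751 to 1.34). Itga6, a laminin receptor chain, was highest in basophils as well (98.7 and 86.5 CPM), within counting error of Treg cells with UDSP-Hep (1.34, 0.793 to 2.17). Their Spn, the mucin CD43, was at 359 and 242 CPM. For Spn, nonclassical monocytes came next with PBS (320.0 CPM), within counting error (1.12, 0.884 to 1.42), and first with UDSP-Hep (417 CPM).

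Vcam1, a ligand of Itga4 that also marks some tissue macrophages, was at 179 CPM (170 to 188) and 151 CPM (141 to 161) in macrophages. The other classes were at or below 12.98 CPM. It was uneven between the clusters named macrophage, over both libraries: that led by C1qa, C1qc and C1qb had 213 CPM, that led by Gpnmb, Mmp12 and Ctsk 113 CPM, and that led by Retnla and Ccl8 9.83 CPM. Itgb5 was found in nonclassical monocytes (121 and 107 CPM), macrophages (75.8 and 96.5 CPM) and classical monocytes (39.5 and 65.4 CPM), and at or below 12.8 CPM elsewhere. Itga5, the fibronectin receptor chain, was highest in classical monocytes with 75.4 and 77.8 CPM, 1.42-fold (1.27 to 1.58) and 1.37-fold (1.21 to 1.55) above macrophages. Sirpa, which restrains phagocytosis when it binds Cd47, was highest in macrophages at 566 and 707 CPM.

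Cd47 itself was present in every class, from 397 CPM in macrophages to 1402 CPM in plasmacytoid DCs in the PBS library, and from 417 to 1445 CPM in the UDSP-Hep library. Plasmacytoid DCs, the interferon-producing dendritic cells, were also highest for Selplg, the selectin ligand PSGL-1 (1183 and 1317 CPM), where NK cells followed within counting error (1112 and 1202 CPM). They were highest for Jaml, a junctional adhesion molecule of leukocytes, at 492 and 410.0 CPM. Cd44, the hyaluronan receptor, was highest in neutrophils with 1992 and 2417 CPM. Icam1, a ligand of LFA-1 and Mac-1, was highest in mature DCs with PBS (179.9 CPM) and in neutrophils with UDSP-Hep. Neutrophils had 67.4 CPM (33.7 to 120.6), from 11 UMIs in 46 cells, with PBS and 518 CPM (482 to 557) with UDSP-Hep. Those PBS neutrophils were too few for the comparison of libraries, and their summed macrophage markers were 686 CPM against 62.3 CPM, whose part in the difference was not tested. Fermt3 (kindlin-3) and Tln1 (talin-1), which switch integrins on, were present in every class, from 59.2 to 257 CPM and from 146 to 482 CPM in the PBS library. Both were lowest there in mature DCs. Fermt3 was highest in Treg cells with PBS (257 CPM) and in cDC1 with UDSP-Hep (240.1 CPM), in both cases within counting error of the next class. Tln1 was highest in nonclassical monocytes (482 and 516 CPM), within counting error of basophils with PBS (1.16, 0.941 to 1.43).

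The remaining members were spread more widely or changed their top class between libraries. Itga1, a collagen receptor chain known as CD49a, was highest in gamma-delta T cells in the PBS library (135 CPM) and in CD8 T cells in the UDSP-Hep library (67.4 CPM), where gamma-delta T cells (62.4 CPM) were within counting error. Itgb3 was found mainly in other CD4 T cells (149.7 and 166 CPM), gamma-delta T cells (166 and 113 CPM), NK cells (155 and 95.9 CPM) and Treg cells (98.8 and 102 CPM). Icam2 was highest in B cells, from 46 and 63 cells, with 65.1 and 42.8 CPM, within counting error of NK cells with UDSP-Hep (1.16, 0.548 to 2.18). Pecam1, a vessel-crossing molecule, was highest in B cells in the PBS library (165 CPM) and in nonclassical monocytes in the UDSP-Hep library (170.3 CPM), in both cases within counting error of the next class. Summed endothelial markers reached at most 301 CPM, in plasmacytoid DCs. F11r, which encodes the junctional molecule JAM-A, was highest in mature DCs with 34.7 and 99.1 CPM, followed by nonclassical monocytes with 26.4 and 53.9 CPM, within counting error with PBS (1.32, 0.739 to 2.50).

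Alpha and beta chains that pair as proteins followed each other across classes to different degrees. Over 15 classes, Spearman's rho between Itgam and Itgb2 was 0.77 with PBS and 0.82 with UDSP-Hep, and between Itgae and Itgb7 it was 0.62 and 0.52. Itga4 and Itgb7 gave -0.31 and -0.31, and Itga4 and Itgb1 0.39 and 0.52. Itgal and Itgb2 gave 0.36 and 0.52, and Itgae and the gene of its ligand, Cdh1, -0.12 and -0.42. The points share their library and its processing, differ in cells and depth, and are given as a description.

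Summed over the groups, members were compared between lymphocytes (T, NK and B cells) and phagocytes (macrophages and monocytes). Of 31 members with enough UMIs, 9 were at least 2-fold higher in phagocytes in both libraries: Itga5, Itgam, Itgb5, Vcam1, Cd44, Sirpa, F11r, Cdh1 and Cadm1. Among all 11102 genes read, 14.3% were. Another 8 members were at least 2-fold lower in phagocytes in both libraries (Itga2, Itga6, Itgav, Itgae, Itgb3, Itgb8, Selplg and Spn), as were 22.6% of all genes. The lymphocyte share of members, 25.8%, was near the background and the phagocyte share, 29%, above it. The remaining 14 members, among them Itga1, Itga4, Itgal, Itgax, Itgb1, Itgb2 and Itgb7, were not past 2-fold the same way in both libraries. Itga2b had too few UMIs in these groups.

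Among phagocyte members, Sirpa was at 15.3 CPM in lymphocytes and 480 CPM in phagocytes of the PBS library, and at 19.8 and 554 CPM in the UDSP-Hep library. That is 31.4-fold (26.8 to 36.9) and 28.0-fold (24.6 to 32.04). Itgb5 gave 24.0-fold (15.8 to 38.4) and 26.8-fold (19.2 to 38.7), and Itga5 13.8-fold (10.4 to 18.5) and 6.74-fold (5.58 to 8.21). Among lymphocyte members, Itgb3 was at 78.5 CPM in lymphocytes against 6.11 CPM in phagocytes, and in the UDSP-Hep library at 92.8 against 8.31 CPM. Itgam stood 12.6-fold (11.3 to 14.0) and 3.60-fold (3.40 to 3.82) higher in phagocytes. Its lymphocyte level was 33.8 and 114 CPM, and NK cells, the lymphocytes with the most Itgam, were 355 and 1160 cells of the libraries. Jaml changed sides: phagocytes had 0.506 (0.460 to 0.556) of the lymphocyte level in the PBS library and 1.63 times (1.503 to 1.77) that level in the UDSP-Hep library.

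**Figure D3:**
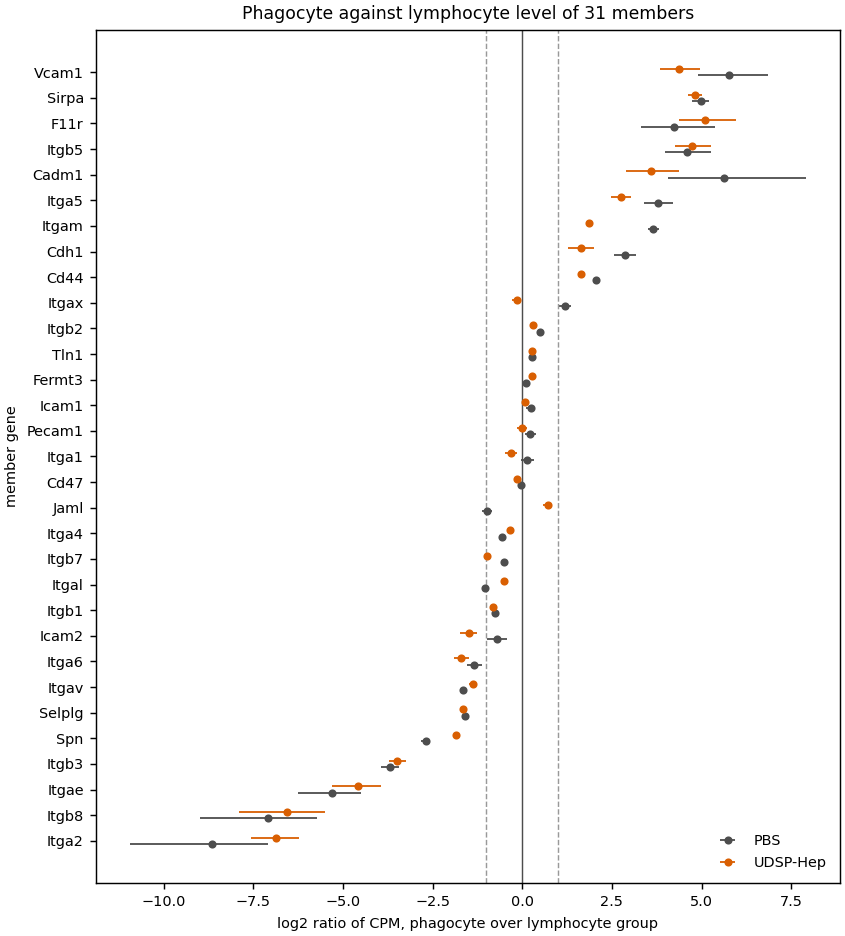
log2 ratio of CPM, phagocyte over lymphocyte group, for 31 members in the PBS (grey) and UDSP-Hep (orange) libraries, with bars for 95% counting intervals and dashed lines at 2-fold. Vcam1, Sirpa, F11r and Itgb5 lie far to the right, Itga2, Itgb8 and Itgae far to the left, and Jaml is left of zero with PBS and right of it with UDSP-Hep.

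Between the libraries, members were read in a class when they had at least 50 UMIs over both, and were called when the ratio of CPM, UDSP-Hep over PBS, was at least 1.5 or at most 0.667. Over 208 such pairs of a member and a class, 37 were higher and 9 lower in the UDSP-Hep library, and 21 members were called in at least 1 class. Among all genes, too, more were higher than lower in each compared class. The higher share ran from 5.39% (cDC2) to 12.8% (CD8 T cells) and the lower share from 3.25% (NK cells) to 9.34% (CD8 T cells). Of the 46 member calls, 15 stayed past 1.5-fold the same way under every alternative that gave a value, and 9 of those 15 were of Jaml, F11r, Cdh1 or Itgal in macrophages and monocytes. The 10 members read and called nowhere were Itga5, Itgav, Itgae, Itgb2, Itgb8, Selplg, Cd44, Cd47, Fermt3 and Tln1.

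**Figure D4:**
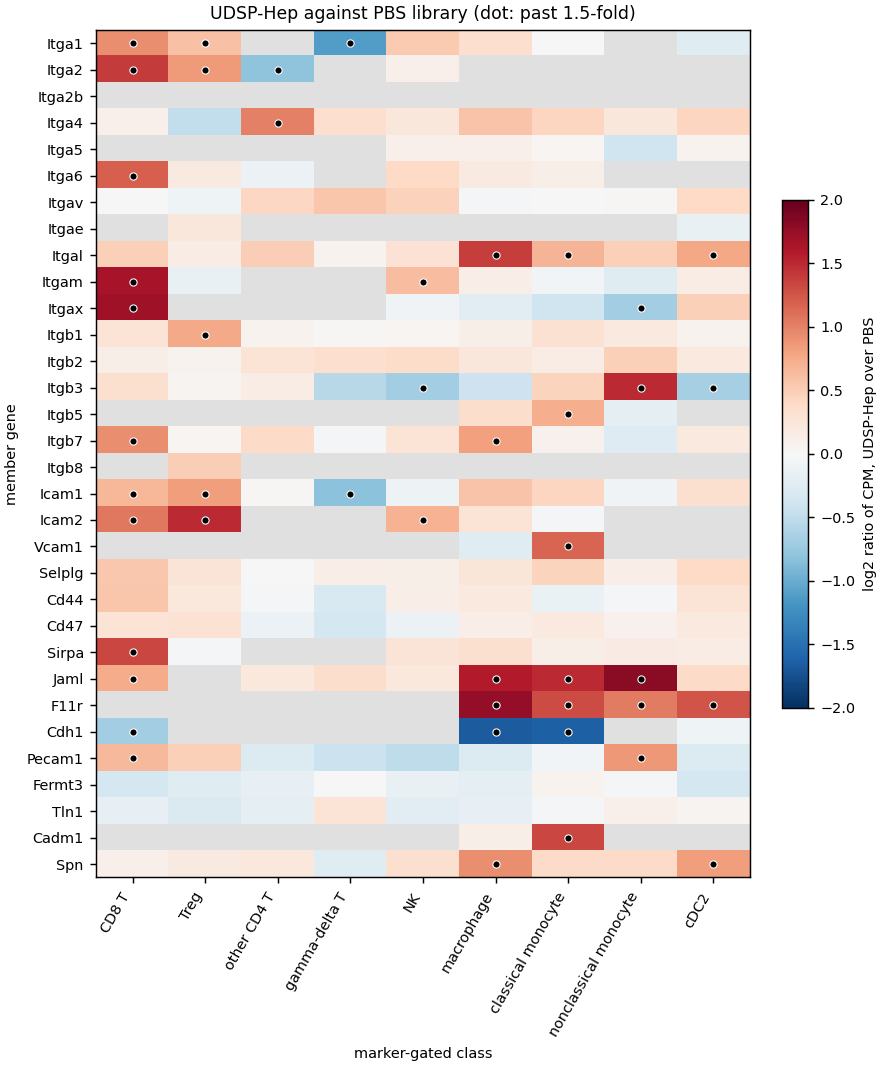
log2 ratio of CPM, UDSP-Hep over PBS, for the 32 members (rows) in the 9 compared classes (columns), with grey for pairs under 50 UMIs and dots where the ratio is past 1.5-fold. Jaml and F11r are red in macrophages and both monocyte classes, Cdh1 is blue in macrophages and classical monocytes, and CD8 T cells have the most dots, with 12.

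In classical monocytes, the blood-derived precursors of tumour macrophages, 6 of 28 members were higher (21.4%, against 7.28% of all genes) and 1 was lower (3.57%, against 3.45%). Jaml was at 42.2 CPM (39.4 to 45.2) with PBS and 119 CPM (113 to 125) with UDSP-Hep, a ratio of 2.82 (2.59 to 3.08). F11r was at 18.9 and 46.5 CPM, a ratio of 2.46 (2.16 to 2.81). Cdh1 was the lower one, at 68.1 CPM (64.5 to 71.8) against 21.9 CPM (19.4 to 24.7), a ratio of 0.322 (0.282 to 0.367). The class held different mixtures in the libraries: the cluster led by heat-shock genes had 207 and 5 of its cells, that led by Ccl24 157 and 14, and that led by Ly6i, Cxcl9 and Cfb 137 and 329.

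Jaml was higher in each of the 13 clusters with at least 10 classical monocytes per library, by 1.68-fold to 16.4-fold. The largest ratio (2.38 to 705) came from 1 and 11 UMIs, and the next was 3.03-fold. F11r was higher in 11 of these clusters and past 1.5-fold in 7. Cdh1 was lower in 10 of them, past 1.5-fold in 9, and higher in 3. In the cluster led by Tgfbi and Tgm2, with 267 and 132 cells, Cdh1 was higher, at 44.5 and 71.9 CPM (1.615, 1.183 to 2.193). Its largest level was in the Ccl24 cluster, with 365 CPM with PBS and 180.0 CPM with UDSP-Hep. Without the heat-shock and Ccl24 clusters, the log2 ratio of Cdh1 was -0.84, against -1.63 with them. Itgal, at 316 and 507 CPM (1.61, 1.55 to 1.66), was past 1.5-fold in 3 of the 13 clusters, and its call ended with these 2 clusters left out (log2 0.57), with clusters weighed the same (0.35) and without the cluster led by Ace and Adgre4 (0.56), which are nonclassical monocyte genes. These alternatives were chosen after the data had been seen.

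**Figure D5:**
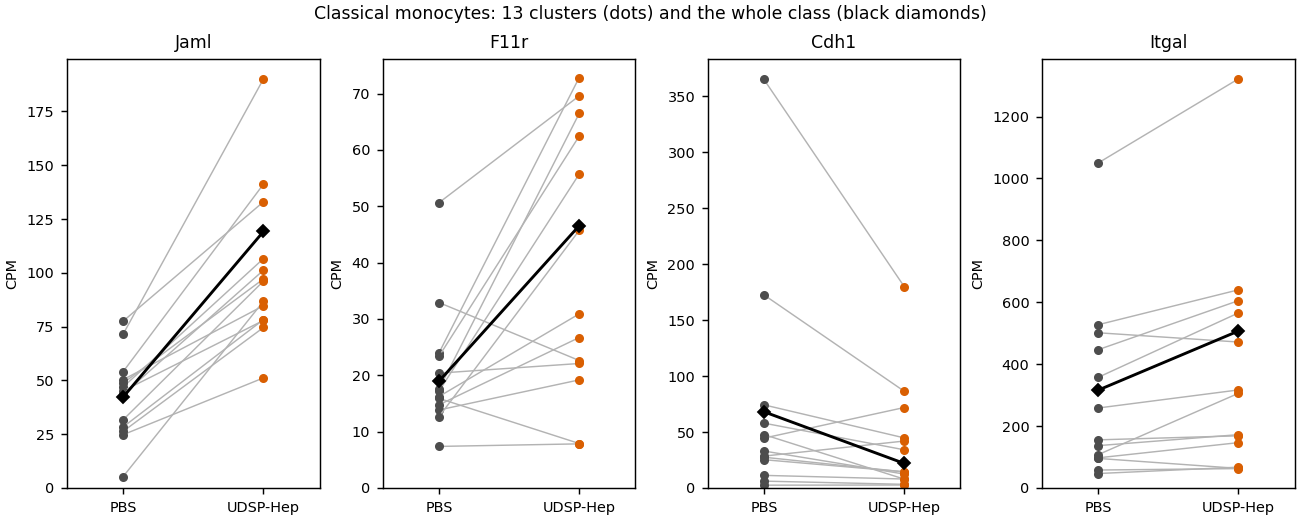
CPM of Jaml, F11r, Cdh1 and Itgal in classical monocytes of the PBS and UDSP-Hep libraries, with a dot and a line for each of 13 clusters and black diamonds for the whole class. All 13 Jaml lines slope up, as do 11 of F11r and 11 of Itgal, and 10 Cdh1 lines slope down.

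The other called members of classical monocytes were Itgb5 (39.5 and 65.4 CPM; 1.65, 1.499 to 1.83), which was past 1.5-fold in 6 of 13 clusters, and the barely detected Vcam1 (4.05 and 9.11 CPM) and Cadm1 (1.06 and 2.69 CPM). Vcam1 and Cadm1 were each higher in 5 and lower in 5 of the 13 clusters. Both calls ended with Leiden clusters as classes and with the stricter gate (lowest log2 0.017 for Vcam1 and -0.24 for Cadm1). Scaling to the median gene moved all ratios of this class by 0.12 on the log2 scale, after which Itgal was at 0.56. NK cell markers, among whose cells Itgal is high, summed to 3.34 and 12.1 CPM in these monocytes, and nonclassical markers to 168 and 297 CPM. Macrophage markers were lower with UDSP-Hep, at 811.2 and 486.5 CPM, as were cDC2 markers, at 236.5 and 176.6 CPM. Neutrophil markers, of cells that have Jaml at 196 and 255 CPM and F11r at 6.13 and 12.6 CPM, summed to 212 and 300.5 CPM. The part of these markers in the ratios was not tested. The median depth of the class was 8688 and 8753 UMIs.

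In macrophages, 5 of 28 members were higher (17.9%, against 8.84% of all genes) and 1 was lower (3.57%, against 4.85%). Jaml was at 23.9 and 71.6 CPM (2.998, 2.52 to 3.57), and F11r at 9.88 and 33.5 CPM (3.39, 2.60 to 4.45). Both genes code for junctional adhesion molecules. Itgal was at 53.4 and 140.0 CPM (2.62, 2.33 to 2.95), and was past 1.5-fold in 5 of 6 clusters. Cdh1 was at 58.7 and 18.5 CPM (0.316, 0.255 to 0.388), and lower in 5 of 6 clusters but past 1.5-fold in 3. The cluster led by Retnla and Ccl8 held 124 PBS and 23 UDSP-Hep cells of the class, and one led by Ero1l and Ndrg1 and named classical monocyte 62 and 13, and with clusters weighed the same the log2 ratio of Cdh1 was -0.69. Macrophage markers summed to 7773 and 5815 CPM, nonclassical monocyte markers to 38.0 and 85.9 CPM, neutrophil markers to 122 and 238 CPM and NK markers to 4.13 and 18.8 CPM, and their part in these ratios was not tested. Itgb7 (46.8 and 82.7 CPM) and Spn (7.88 and 14.97 CPM) were called higher but turned direction after thinning, where they had few UMIs (43 and 31 for Itgb7, 6 and 2 for Spn).

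Nonclassical monocytes, of which there were 86 and 348, had 4 of 22 members higher (18.2%, against 12.3% of all genes) and 1 lower (4.55%, against 4.09%). Jaml was at 36.9 CPM, from 21 UMIs, and 129 CPM (3.49, 2.24 to 5.73). F11r was at 26.4 and 53.9 CPM (2.05, 1.19 to 3.77). Pecam1 was at 93.2 and 170.3 CPM (1.83, 1.37 to 2.49), but 1.44-fold in the larger of the 2 clusters compared, and its call ended with Leiden clusters as classes (log2 0.44). The larger cluster, led by Ace, Adgre4 and Slc12a2, held 47 and 273 cells of the class and the other, led by Ace, Adgre4 and Ceacam1, 29 and 58. Itgb3 was at 8.79 CPM, from 5 UMIs, and 24.7 CPM. Itgax was the lower one, at 219.8 and 135 CPM (0.616, 0.498 to 0.764), and was past 1.5-fold in both of the clusters compared. In the class, neutrophil markers summed to 200.4 and 341.5 CPM and macrophage markers to 93.2 and 144.3 CPM. Classical monocyte markers summed to 6633 and 5407 CPM and nonclassical markers to 2641 and 3348 CPM. The part of these markers in the ratios of the class was not tested.

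The promoters of Jaml and F11r, the members that were higher in all 3 phagocyte classes, are printed with GAGGAA or its reverse complement in capitals (RefSeq, GRCm38.p6; chr9:45078933-45079232 and chr1:171437311-171437610, both plus strand).
Jaml: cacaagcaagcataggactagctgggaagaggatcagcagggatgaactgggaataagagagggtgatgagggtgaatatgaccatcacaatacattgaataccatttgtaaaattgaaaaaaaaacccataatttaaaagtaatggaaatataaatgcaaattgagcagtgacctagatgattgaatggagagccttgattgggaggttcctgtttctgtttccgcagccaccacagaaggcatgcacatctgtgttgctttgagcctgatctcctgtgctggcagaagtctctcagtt
F11r: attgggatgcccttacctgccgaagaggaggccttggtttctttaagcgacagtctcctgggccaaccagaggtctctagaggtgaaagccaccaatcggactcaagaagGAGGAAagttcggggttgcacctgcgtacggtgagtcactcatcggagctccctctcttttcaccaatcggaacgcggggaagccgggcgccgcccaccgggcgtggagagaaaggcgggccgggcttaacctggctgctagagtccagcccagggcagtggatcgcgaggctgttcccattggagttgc
The F11r window held 1 match and the Jaml window 0. Jaml spans 45079183 to 45108534 on chromosome 9 and overlaps Gm10684 on the other strand, and F11r spans 171437535 to 171464603 on chromosome 1 with no other annotated gene.

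In cDC2, 3 of 24 members were higher, where 5.39% of all genes were, and 1 was lower (4.17%, against 3.35%). F11r was at 12.9 and 30.9 CPM (2.40, 1.69 to 3.44). Itgal was at 51.2 and 87.4 CPM (1.71, 1.41 to 2.06), and Spn at 16.7 and 29.8 CPM (1.79, 1.29 to 2.49). The F11r and Itgal calls ended after thinning (log2 -0.51 and 0.21), and the Spn call with Leiden clusters as classes (0.40). Itgb3 was lower, at 16.9 and 10.7 CPM, a call that ended under 4 of 8 alternatives (log2 -0.09 at the smallest). Cdh1, lower in macrophages and classical monocytes, was at 227 and 214 CPM in cDC2 (0.945, 0.852 to 1.05).

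CD8 T cells, the cytotoxic T cells, had the most calls: 11 of 24 members were higher (45.8%, against 12.8% of all genes) and 1 lower (4.17%, against 9.34%). Itga6 was at 26.4 and 60.3 CPM (2.29, 1.83 to 2.86). It was higher in all 4 clusters compared, by 1.316-fold to 2.915-fold, and past 1.5-fold in 2 of them. Itga1, which marks tissue-resident CD8 T cells, was at 35.4 and 67.4 CPM (1.90, 1.56 to 2.33), and Itgb7 at 88.0 and 168 CPM (1.91, 1.69 to 2.17). The Itga1 call ended with clusters weighed the same (log2 0.57). The class was composed differently in the libraries. The cluster led by Cd8b1 and Tcf7, with S1pr1 and Lef1 among its leading genes, held 130 of 521 PBS cells and 249 of 408 UDSP-Hep cells. The cluster led by Cd8a and Cxcr6, with Pdcd1 and Tox, held 225 and 87, and that led by Pclaf and Top2a, genes of dividing cells, 95 and 21.

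Within the cluster led by Cd8b1 and Tcf7, Itgb7 was at 224 and 221 CPM, and within that led by Cd8a and Cxcr6 at 59.1 and 83.7 CPM. Itga1 was past 1.5-fold in 3 of 4 clusters, with 42.0 and 90.6 CPM in that led by Cd8b1 and Tcf7. It was lower in the cluster led by Pclaf and Top2a, at 22.9 CPM and, from 1 UMI, 2.445 CPM. Itgb7 was past 1.5-fold in 0 of 4 clusters, and Jaml (98.1 and 163 CPM in the class) in 2 of 4. In the other 2 clusters Jaml was lower, with a ratio of 0.738 (0.583 to 0.934) in that led by Cd8b1 and Tcf7, and its call ended with cells or clusters weighed the same. With clusters weighed the same, 7 members of CD8 T cells were called in place of 12, with at least 200 UMIs 6, and after thinning 4. The shares of all genes under these alternatives are not given, so these counts are not set against a background. The median depth of the class was 8273 and 5479 UMIs. Itgam (4.84 and 15.2 CPM) and Sirpa (7.84 and 19.8 CPM), both at least 2-fold higher in the phagocyte group, were called higher. So was Itgax (9.51 and 30.7 CPM), which was not past 2-fold between those groups in both libraries. Itgax was at 5.78 and 52.1 CPM in the cluster led by Cd8a and Cxcr6, and was lower in 2 of the 4 clusters. In the class, summed neutrophil markers were 25.2 and 59.3 CPM and macrophage markers 34.4 and 56.1 CPM. The part of these markers in the ratios was not tested. Icam1 (53.1 and 84.0 CPM), Icam2 (12.52 and 26.1 CPM), Pecam1 (19.2 and 30.0 CPM) and Itga2 (5.34 and 14.1 CPM) were also called higher, and Cdh1 (9.68 and 5.998 CPM) lower with an interval that includes equality. The Icam1 and Pecam1 calls each held under 3 of 8 alternatives and ended, among others, with median-of-ratios scaling, doublets kept and cells weighed the same. Pecam1 was lower in 3 of the 4 clusters.

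Treg cells had 5 of 23 members higher (21.7%, against 5.85% of all genes) and 0 lower (4.84% of all genes). Icam1 was at 105 and 187 CPM (1.79, 1.47 to 2.19), and Icam2 at 9.45 and 26.7 CPM (2.83, 1.51 to 5.68). Itgb1 was at 71.2 and 120.4 CPM (1.69, 1.33 to 2.17). In each of the 2 clusters compared these 3 members were higher in the UDSP-Hep library. Itga1 (13.1 and 19.6 CPM) and Itga2 (10.9 and 19.6 CPM) were called from 18 and 15 UMIs in the PBS library, and their intervals include equality. Itgb8, Itgav, Itgae and Itgb7 were not past 1.5-fold in Treg cells.

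NK cells had 2 of 24 members higher (8.33%, against 6.84% of all genes) and 1 lower (4.17%, against 3.25%), which is near the background. Icam2 was at 22.7 and 36.9 CPM (1.63, 1.15 to 2.36), and Itgam, which rises as NK cells mature, at 152 and 232 CPM (1.53, 1.34 to 1.75). Itgb3 was lower, at 155 and 95.9 CPM (0.620, 0.534 to 0.722). NK cells lay mainly in a cluster led by Gzma and Klra4 (196 and 511 cells) and one led by Gzma and Serpinb9b (150 and 601 cells). The first had more Itgb3 (194 and 144 CPM) and the second more Itgam (278 and 379 CPM). The Itgam call held under 3 of 8 alternatives and ended with median-of-ratios scaling, doublets kept, cells weighed the same, thinning and clusters weighed the same. With clusters weighed the same, 1 member was called, and the share of all genes under that weighting is not given.

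In other CD4 T cells 1 of 18 members was higher (5.56%, against 10.2% of all genes), which was Itga4 at 182 and 367 CPM (2.01, 1.62 to 2.51), and 1 was lower (5.56%, against 4.62%), which was Itga2 at 41.3 and 23.7 CPM (0.573, 0.320 to 1.03). The Itga4 call ended after thinning (log2 0.37), and the Itga2 call held under 5 of 8 alternatives. Summed ILC2 markers, which T helper 2 cells share, were 378 and 1234 CPM in this class, and their part in the Itga4 ratio was not tested. In gamma-delta T cells, with 68 and 66 cells, 0 of 17 members were higher (9.22% of all genes) and 2 were lower (11.8%, against 5.93%). These were Itga1 at 135 and 62.4 CPM (0.461, 0.279 to 0.746) and Icam1 at 81.8 and 46.2 CPM (0.566, 0.306 to 1.02). The cluster led by Il17a and Tcrg-C1 held 31 and 10 of these cells.

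Other genes of the adhesion machinery were read from 3 lists. Of 10 other integrin subunits, only Itga9 was read in any class, and it was lower in classical monocytes (3.49 and 2.06 CPM). Of 39 genes of integrin activation and adhesion signalling, 5 of 30 were higher in CD8 T cells (12.8% of all genes were) and 0 lower (9.34% of all genes), which is near the background for higher genes. Among them was Rasgrp2, which activates Rap1 upstream of talin, at 30.9 and 63.5 CPM. Rasgrp2 was also called higher in Treg cells (10.2 and 27.8 CPM) and NK cells (58.7 and 88.6 CPM). In classical monocytes 0 of 31 were higher (7.28% of all genes) and 1 was lower (3.45% of all genes), which was Dab2 (an endocytic adaptor that binds integrin tails, at 358 and 229 CPM), and in macrophages 3 of 32 were higher and 1 lower, near the 8.84% and 4.85% of all genes.

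Of 34 ligands and partners, 32 were in the files. Fn1, which encodes fibronectin, the ligand of Itga5, was lower in macrophages at 1370 and 532 CPM (0.388) and in nonclassical monocytes at 148 and 68.8 CPM, and higher in Treg cells (44.3 and 85.6 CPM) and cDC2 (78.6 and 121 CPM). Spp1, which encodes the integrin ligand osteopontin, was lower in classical monocytes at 578 and 166 CPM and in Treg cells at 209 and 82.8 CPM. It was higher in NK cells at 47.6 and 246 CPM, in other CD4 T cells at 43.0 and 114 CPM and in nonclassical monocytes at 28.1 and 57.1 CPM. In macrophages 5 of 16 genes of this list were higher and 3 lower, where 8.84% and 4.85% of all genes were. In classical monocytes 3 of 18 were higher and 4 lower, where 7.28% and 3.45% of all genes were. The median log2 ratio of the members was 0.55 in CD8 T cells, 0.19 in macrophages and 0.13 in classical monocytes, against 0.05, 0.07 and 0.12 over all genes read in those classes.

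Some members overlap other annotated genes on the same strand, so their UMIs may be shared: Itga1 with Pelo and Gm49395, Itgam with Gm49368, Itga6 with Gm13663 and Gm13662, Itga2b with Gm23563, Itga5 with Mir6963 and Cadm1 with Gm47198. The sources used here do not say how reads in such overlaps were assigned.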

How the data were processed

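UMI counts per gene and cell barcode of 1 PBS and 1 UDSP-Hep library were deposited by the authors as matrices made with Cell Ranger 7.0.0 on mm10 per the submitters' processing notes. Those notes also name Seurat, with no role or version. The sources used here do not say whether intronic reads were counted, which bears on the level of genes with long introns.

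Kept barcodes had 200 or more genes, 500 or more UMIs and less than 10% of UMIs from mitochondrial genes, and the highest Scrublet scores were removed (0.8% per 1000 barcodes; 417 and 481), since Scrublet's own threshold marked 1 barcode in each library. Each cell was classed by marker genes that exclude the members. The members, lists and markers were chosen with earlier results of these data known, and the gates were tuned with the data in view. Clusters (38) came from 2000 variable genes without members, 30 principal components, 15 neighbours and Leiden resolution 2 (scanpy 1.11.5, leidenalg 0.10.2), and are labelled by their leading genes. UMIs were summed per class and library and scaled to CPM. Intervals are exact Poisson for levels and conditional binomial for ratios (scipy 1.17.1).

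Every member is accounted for. Across classes each is named with its highest class, and between libraries each past 1.5-fold is named in classes with at least 50 cells in both libraries and 50 summed UMIs of the gene. Of the pathway lists, the genes furthest from equality are named, and Spp1, Fn1, Dab2 and Rasgrp2 are followed over further classes, a choice made after their values were seen. A gene of the ligand and partner list is not reported here. Alternatives were the Leiden clusters as classes, median-of-ratios scaling, doublets kept, under 20% mitochondrial UMIs, cells weighed the same, thinning to 1000 UMIs, minimums of 20 and 200 UMIs and a stricter gate. Gene positions are from GENCODE on GRCm38 and promoters from RefSeq (GRCm38.p6). The calculation was tested on simulated counts. With 1 library a group, no count model was fitted.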

Additional observations from a re-analysis of the deposited data

How the results depend on the processing

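No paired analysis was possible because each group is 1 library. Of 390 values of single members under alternatives, 319 stayed within the interval of the reported value, 62 moved and 9 turned direction; where no construction is named, the cause was not tested. Thinning to 1000 UMIs, which leaves few UMIs, gave 16 members with 1 shared top class in place of 25, and 4 called members in CD8 T cells (reported 12), 2 in Treg cells (5), 1 in other CD4 T cells (2), 0 in gamma-delta T cells (2) and 2 in cDC2 (4). A minimum of 200 UMIs, which reads fewer genes, gave 6 in CD8 T cells, 2 in Treg cells, 1 in other CD4 T cells, 0 in gamma-delta T cells, 3 in nonclassical monocytes (5) and 1 in cDC2. Weighing clusters the same (like leaving out clusters, this was chosen after seeing the data) gave 7 in CD8 T cells, 1 in other CD4 T cells and 1 in NK cells (3). Leiden clusters as classes gave 8 in Treg cells. Macrophage and classical monocyte counts stayed within 1.5 times the reported ones under every alternative run. Shares of all genes under the alternatives are not given beside these counts. The counts therefore do not show whether a share above the background was kept.

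After thinning, the log2 ratio turned to -1.23 for Itga2 in CD8 T cells, -0.75 for Itga1 in Treg cells, 0.78 for Icam1 in gamma-delta T cells, -0.028 for Itgb7 and -1.14 for Spn in macrophages, and -0.51 for F11r in cDC2. Leiden clusters turned Sirpa in CD8 T cells to -0.069 and Cadm1 in classical monocytes to -0.24, and clusters weighed the same turned Pecam1 in CD8 T cells to -0.092. Depth limits the classes with few cells most, and no alternative stands in for a second library.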

Other observations

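Classes too small for the comparison of libraries gave further values, which are printed with their cell numbers and not compared. Mature DCs (129 and 37 cells) had 34.7 and 99.1 CPM of F11r, 26.8 and 129 CPM of Itgax and 16.5 and 71.4 CPM of Itgb2. cDC1 (78 and 16 cells) had 115 and 260.3 CPM of Itgal and 68.2 and 199.5 CPM of Icam1. Plasmacytoid DCs (88 and 34 cells) had 799.9 and 1352 CPM of Cd44. Neutrophils (46 and 553 cells) had 6.13 and 53.2 CPM of Itga5, the fibronectin receptor chain, and 269.7 and 440.1 CPM of Sirpa. Eosinophils (1 and 63 cells) held too few UMIs for levels.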
